A study of Mus musculus with 30 samples.

Results

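In livers of mice given any of 3 PPAR-alpha agonists, 14 of 5123 probe sets met 2 conditions. Their mean intensity was at least 1.7 times that of vehicle after 5 days in all 3 agonist groups. After 24 h it lay between 0.7 and 1.3 times that of the 24 h vehicle, again in all 3. The 5123, out of 12488 probe sets, were not controls and were above 50 on all 8 vehicle arrays. These 14 late-induced probe sets were chosen by those ratios, so their ratios to vehicle are a description and carry no test. Their median ratio at 5 days was 1.95 with CP-775146, 2.02 with CP-868388 and 1.96 with CP-865520, against 1.08, 0.984 and 1.05 at 24 h. Over the 5123 probe sets the median ratio was 0.802, 0.873 and 0.849 at 5 days. At 24 h it was 0.931, 0.855 and 0.998, so a 24 h ratio near 1 was not always the typical value, least so with CP-868388. The name late-induced describes both sides of the ratio unevenly: in 13 of the 14 the vehicle mean was lower at 5 days than at 24 h, and in 5 that difference between vehicle groups was larger, on a log scale, than the mean difference between the agonist groups of the 2 times.

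PPAR-alpha is a nuclear receptor of the liver that pairs with the retinoid X receptor on DNA and, when bound by fatty acids or a drug, raises transcription of genes for the uptake and oxidation of fatty acids. In mice its agonists enlarge the liver and multiply peroxisomes over days of dosing, so that a sample taken early and one taken later can hold different sets of changed transcripts. Fibrate drugs, which lower blood lipids, act on the same receptor.

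The agonists CP-775146, CP-868388 and CP-865520 are piperidines. Male C57Bl/6 mice received 1 of them at 1 mg per kg per day, or water as the vehicle, for 24 h or for 5 days, which gives 8 groups. Each group had 4 arrays except CP-775146 at 5 days, which had 2, and each array was taken as the liver of a separate mouse. All groups are of the one strain and sex, and no genetic change is given for any of them.

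The 30 arrays held deposited intensities on a linear scale with a floor of 50, at which 50.3% of all values lay, and an array's mean intensity ranged from 314.1 to 318.2. Between 5600 and 6741 probe sets were above the floor on an array, and no array repeated another. The files do not pair probe sets with genes, so the 14 are given here by probe set, and neither their roles nor the liver and cell type markers could be checked. In Affymetrix names, the suffix F marks a probe set whose probes are shared by related sequences and R marks one picked under relaxed selection rules. 94805_F_AT and 94789_R_AT may for that reason read more than 1 transcript or read one less precisely. In whole liver, more cells of a type and more RNA per cell cannot be told apart. On 3 arrays, all at 24 h, the 5′ to 3′ ratio of the Gapdh control probe sets, a measure of how intact the RNA was, was below −0.4 on the log2 scale: −0.55 for CP-868388 replicates 1 and 3, and −0.45 for CP-865520 replicate 4.

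The rule narrowed the table in steps. Of the 12422 probe sets that are not controls, 5123 were above 50 on all 8 vehicle arrays, and 379 of these reached 1.7 times vehicle under all 3 compounds at 5 days. Of the 379, 101 had also reached 1.7 under all 3 at 24 h and 261 were above 1.3 under all 3. A further 102 were above 1.3 at 24 h under 1 or 2 of the compounds, and 2 were below 0.7 under at least 1, which left the 14. Just inside the 5 day threshold lay 94897_AT and 97485_AT, each with a smallest ratio of 1.71, and 93940_AT at 1.75. Just outside it lay 97874_AT at 1.69 and 93043_AT and 96670_AT at 1.67. At 24 h, 94805_F_AT had the highest ratio inside the band, at 1.299, and 94325_AT, at 1.304, lay just outside. The members nearest the lower end of the band were 160847_AT at 0.729 and 96679_AT at 0.756, and the nearest outside were 93907_F_AT at 0.667 and 100927_AT at 0.566. The membership of 94897_AT, 97485_AT and 94805_F_AT therefore hung on ratios close to a threshold.

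**Figure D1:**
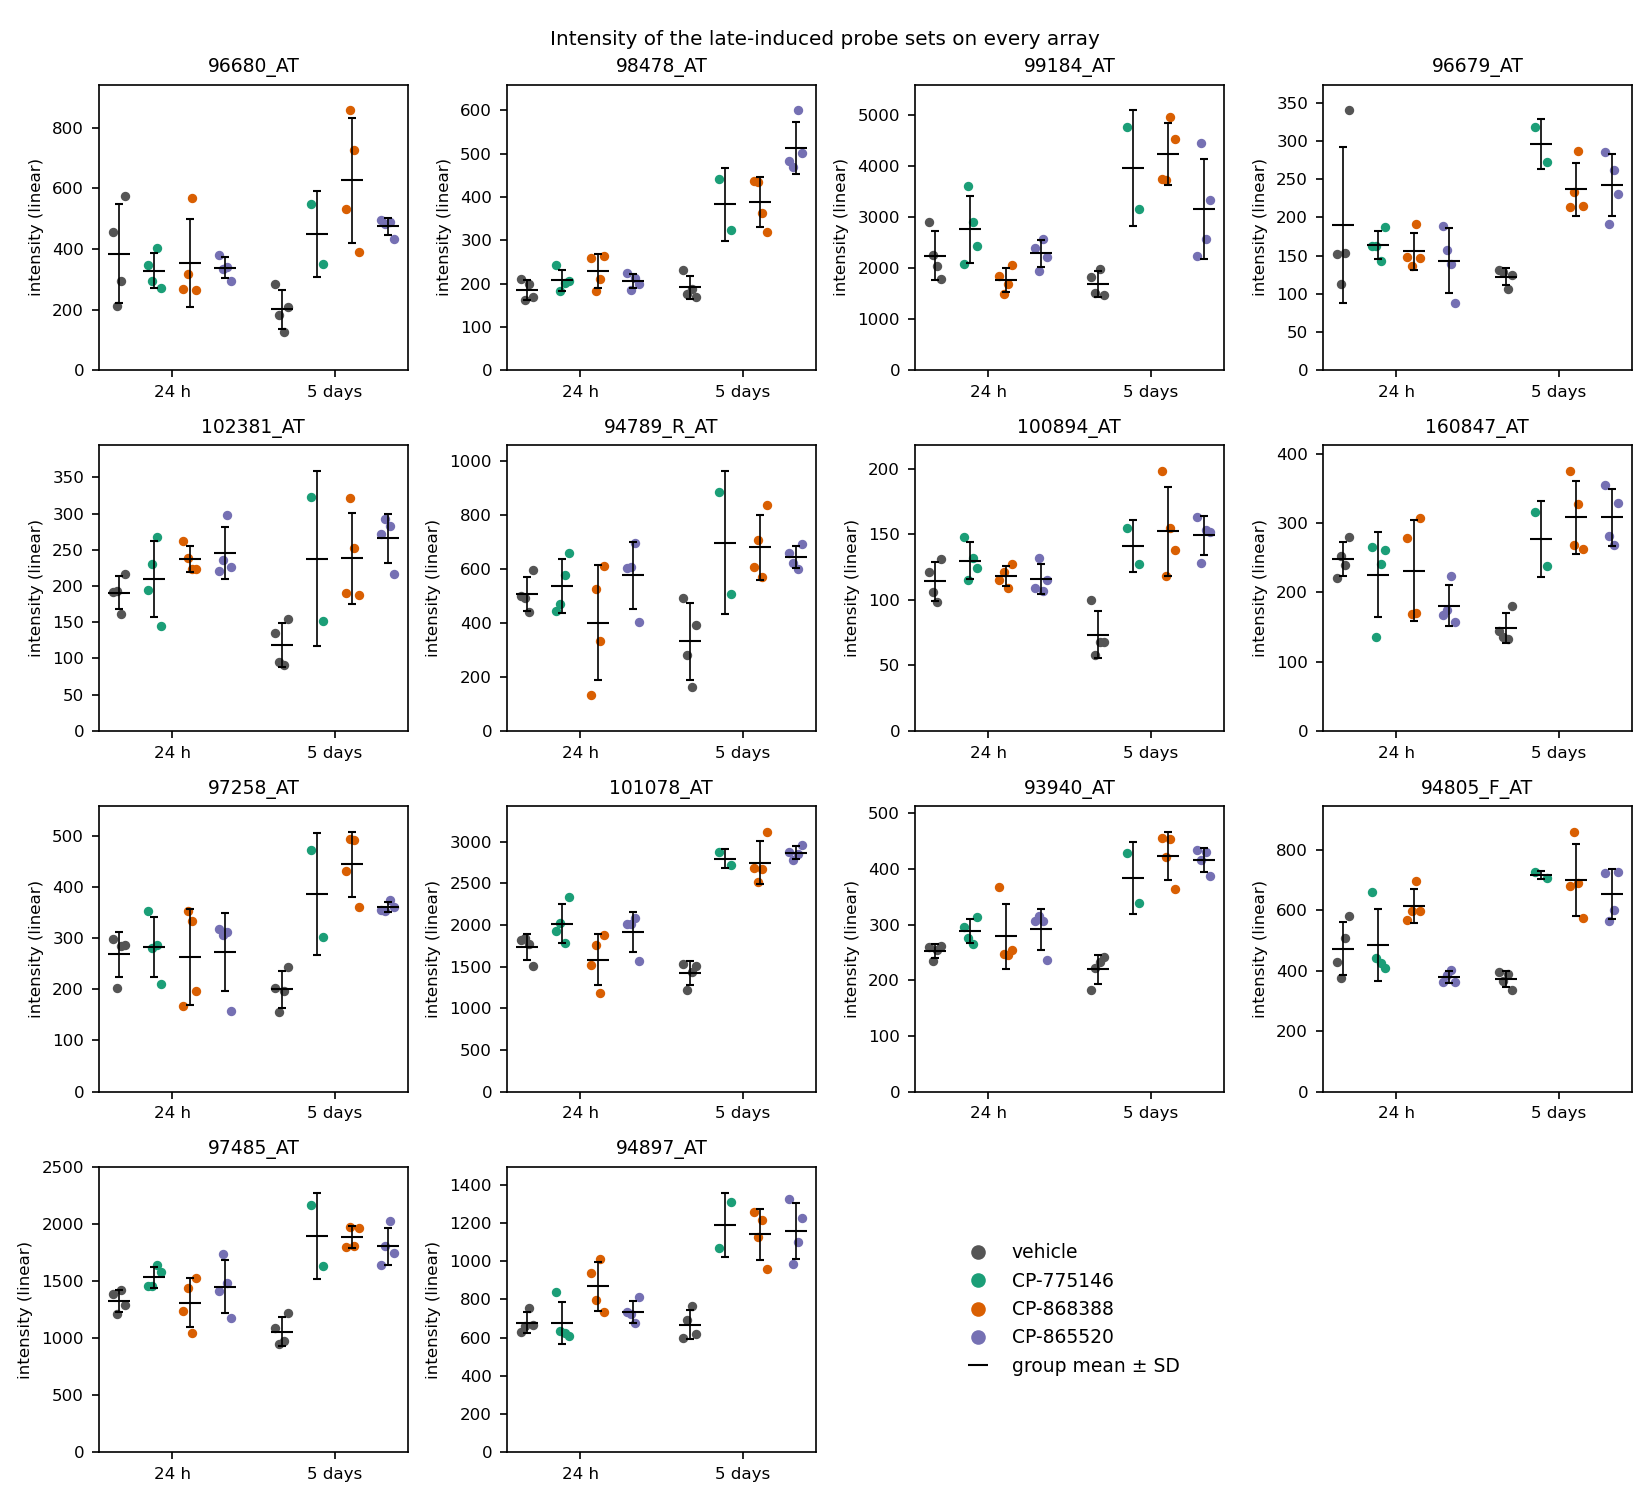
Linear intensity of each of the 14 probe sets on all 30 arrays (points), with the group mean ± SD (bars), by time and treatment. At 5 days the agonist points lie above the vehicle points in every panel except 102381_AT, where CP-775146 replicate 2 at 152 lies under the highest vehicle array at 154.

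All 14 were above the floor on all 30 arrays. Their mean intensity over all arrays ran from 123 for 100894_AT, at percentile 25.9 of the 5123, to 2684 for 99184_AT, at percentile 94.8, with a median percentile of 66.7. At 5 days all 10 agonist arrays were above all 4 vehicle arrays in 13 of the 14, where 10% were so among the 7963 probe sets, controls aside, above 50 on at least 2 arrays, the ones that entered the tests. The rule used this contrast, so nothing is read from that count. Compound by compound, all agonist arrays at 5 days lay above all vehicle arrays in 13 members for CP-775146 (14.6% of all tested), 14 for CP-868388 (12.5%) and 14 for CP-865520 (13.4%). At 24 h 2, 1 and 1 members had all agonist arrays above all vehicle arrays (9.05%, 11.3% and 10.3%), counts that the rule's band at 24 h also holds low. They were 93940_AT and 97485_AT for CP-775146, and 102381_AT for both CP-868388 and CP-865520. None of these counts is a test.

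98478_AT, put first here after the values were seen, had nearly the same vehicle mean at both times and its highest agonist arrays at 5 days. Its vehicle arrays read 210, 163, 199 and 168 at 24 h and 231, 177, 187 and 170 at 5 days. After 24 h it read 242, 184, 201 and 205 with CP-775146, 258, 182, 210 and 264 with CP-868388, and 225, 186, 213 and 200 under CP-865520. After 5 days it read 442 and 324 with CP-775146, 436, 434, 364 and 319 with CP-868388, and 483, 469, 600 and 502 under CP-865520. Every 5 day agonist array was above every other array, agonist arrays at 24 h included. The 5 day means were 191 ± 27.4 for vehicle (SD, n = 4), 383 ± 83.4 for CP-775146 (n = 2), 388 ± 57.0 for CP-868388 (n = 4) and 514 ± 59.2 for CP-865520 (n = 4). These give ratios of 2.00, 2.03 and 2.68 to vehicle, and from 24 h to 5 days the means were 1.84, 1.699 and 2.49 times higher within the same compound, against 1.03 in vehicle. Its 24 h ratios were all above 1, at 1.12, 1.24 and 1.11, and the CP-868388 arrays at 258 and 264 were above all vehicle arrays. It failed the rule with a 24 h band of 0.8 to 1.2 and without CP-868388 replicate 2 at 24 h. Quantile normalization, or scaling arrays to the median of probe sets above 50 on all arrays, also removed it.

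94897_AT also had nearly the same vehicle mean at both times. Vehicle arrays read 630, 660, 756 and 668 at 24 h and 596, 690, 765 and 620 at 5 days, a ratio of 0.984 between the means. At 24 h it read 840, 637, 623 and 607 with CP-775146, 936, 797, 1011 and 732 with CP-868388, and 735, 721, 674 and 810 under CP-865520. At 5 days it read 1070 and 1308, then 1258, 1125, 1214 and 960, then 1324, 987, 1100 and 1224 under the same compounds in that order. All 5 day agonist arrays were above all 8 vehicle arrays, but the CP-868388 array at 1011 after 24 h overlapped those at 960 and 987 after 5 days. The 5 day ratios were 1.78, 1.71 and 1.74, and the 24 h ratio under CP-868388 was 1.28, near the upper limit of the rule. Without the 2 arrays with a low Gapdh ratio, which read 936 and 1011, that ratio was 1.13.

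101078_AT was among the most abundant of the 14, with the 5 day groups far apart relative to their spread. Its vehicle arrays read 1820, 1847, 1772 and 1503 at 24 h and 1535, 1216, 1437 and 1504 at 5 days. After 24 h it read 1932, 2021, 1782 and 2333 with CP-775146, 1514, 1764, 1179 and 1875 with CP-868388, and 2015, 2010, 2085 and 1562 under CP-865520. After 5 days it read 2877 and 2715, then 2679, 2516, 2665 and 3115, then 2876, 2781, 2850 and 2963 in the same order. The lowest 5 day agonist array, at 2516, was above the highest of all others, at 2333. The 5 day mean was 1423 ± 144 in vehicle (SD, n = 4) and 2796 ± 115 (n = 2), 2744 ± 258 (n = 4) and 2868 ± 75.2 (n = 4) under the 3 compounds, ratios of 1.96, 1.93 and 2.02. With the mean of all 8 vehicle arrays as the reference, 101078_AT and 98478_AT were the only 2 of the 14 that still reached 1.7 under all 3 compounds, at 1.77, 1.74 and 1.82 for 101078_AT and 2.04, 2.06 and 2.73 for 98478_AT.

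In 93940_AT the vehicle arrays read 259, 234, 255 and 262 at 24 h and 182, 222, 233 and 241 at 5 days. Its 5 day agonist arrays read 429 and 338, then 456, 421, 453 and 364, then 434, 415, 431 and 387, so all were above all 8 vehicle arrays. Its 24 h agonist arrays lay between 237 and 367, and the highest of these overlapped the lower 5 day arrays. Ratios at 5 days were 1.75, 1.93 and 1.90.

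97485_AT had vehicle arrays of 1383, 1212, 1426 and 1289 at 24 h and 1089, 947, 975 and 1221 at 5 days. The 5 day agonist arrays were 2164 and 1632, then 1797, 1976, 1805 and 1966, then 1643, 1809, 2028 and 1745, again above all 8 vehicle arrays. Agonist arrays at 24 h ran from 1050 to 1740 and overlapped the lowest of these. Its ratios, 1.79, 1.78 and 1.71 at 5 days, were 1.59, 1.58 and 1.51 when set against the mean of all 8 vehicle arrays. At 24 h its ratios were 1.16, 0.989 and 1.09.

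97258_AT was the sixth whose 5 day agonist arrays cleared all 8 vehicle arrays, together with 98478_AT, 94897_AT, 101078_AT, 93940_AT and 97485_AT. Such a separation was seen in 7.92% of all probe sets tested. The rule's 5 day ratio favours it, so this count is a description and not a test. The vehicle arrays of 97258_AT read 299, 203, 285 and 286 at 24 h and 203, 155, 197 and 244 at 5 days. Its 5 day agonist arrays read 471 and 302, then 431, 493, 492 and 360, then 354, 353, 374 and 361, ratios of 1.93, 2.22 and 1.80. The lowest of them, CP-775146 replicate 2 at 302, was only just above the highest vehicle array, and 24 h agonist arrays reached 353.

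99184_AT was the most abundant of the 14 and had the largest coefficient of variation of them under CP-865520 at 5 days, 31.1%. Vehicle arrays read 2899, 2253, 2044 and 1792 at 24 h and 1821, 1505, 1990 and 1466 at 5 days. At 5 days it read 4758 and 3159 with CP-775146, 3746, 3736, 4959 and 4521 with CP-868388, and 2246, 4451, 2566 and 3339 under CP-865520. Every agonist array was above the 5 day vehicle arrays, but the CP-865520 arrays at 2246 and 2566 were below the highest 24 h vehicle array. At 24 h it read 2078, 3611, 2912 and 2433 under CP-775146 and 1848, 1500, 1686 and 2057 under CP-868388, while CP-865520 arrays lay between 1946 and 2577. Its ratios were 2.33, 2.501 and 1.86 at 5 days and 1.23, 0.789 and 1.02 at 24 h.

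96679_AT had one vehicle array far above the rest: its 24 h vehicle arrays read 152, 113, 153 and 340, and its 5 day vehicle arrays read 131, 128, 106 and 124. At 24 h it read 163, 163, 143 and 188, then 148, 136, 191 and 147, then 189, 157, 139 and 88 under the 3 compounds. At 5 days it read 319 and 273, then 213, 233, 287 and 215, then 285, 192, 262 and 230. All 5 day agonist arrays were above all 12 agonist arrays at 24 h, though only by 192 against 191. Such a separation held in 3 of the 14, with 101078_AT and 98478_AT, and in 0.879% of all tested. The rule favours it, so nothing is read from that count. The vehicle array at 340 was nevertheless the highest of all 30. Ratios were 2.42, 1.94 and 1.98 at 5 days and 0.867, 0.821 and 0.756 at 24 h. Those at 24 h are set against a vehicle mean of 190 ± 102 (SD, n = 4), which the array at 340 raised. The agonist means at 24 h were 164, 156 and 143, and the other vehicle arrays of that time read 153 or less.

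94805_F_AT differed most between compounds at 24 h. Its vehicle arrays read 427, 377, 509 and 579 at 24 h and 397, 364, 390 and 337 at 5 days. At 24 h it read 661, 441, 425 and 408 with CP-775146, 566, 597, 696 and 598 with CP-868388, and 361, 385, 402 and 362 under CP-865520. At 5 days it read 725 and 707, then 680, 858, 688 and 573, then 721, 565, 601 and 727, so the 5 day means differed little between compounds. The 5 day ratios were 1.92, 1.88 and 1.76, and the 24 h ratios 1.02, 1.299 and 0.798.

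In 100894_AT, 102381_AT, 160847_AT, 94789_R_AT and 96680_AT the vehicle means of both times differed more on a log scale than the agonist means. The agonist difference was averaged over the 3 compounds for this. This grouping was made after the values were seen. By single compound the order was reversed in 94789_R_AT under CP-868388 and in 160847_AT under CP-865520. There the 5 day agonist means were 1.697 and 1.705 times those at 24 h. The 24 h vehicle means were 1.529 and 1.67 times those at 5 days. 96680_AT had the largest ratio of the 14, 3.12 with CP-868388, and one of 2.24 under CP-775146 and 2.37 under CP-865520. Its vehicle arrays read 455, 212, 295 and 576 at 24 h and 283, 183, 127 and 210 at 5 days, a ratio of 0.522 between the means. At 5 days it read 550 and 350, then 533, 857, 727 and 390, then 497, 482, 488 and 434. The 24 h vehicle arrays at 455 and 576 thus overlapped the agonist arrays of 5 days. Its 5 day mean was 201 ± 64.8 in vehicle (SD, n = 4), 450.0 ± 141 with CP-775146 (n = 2), 627 ± 206 with CP-868388 (n = 4) and 475 ± 28.2 under CP-865520 (n = 4).

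102381_AT had 24 h vehicle arrays of 192, 193, 161 and 217 and 5 day vehicle arrays of 135, 95, 91 and 154, which do not overlap. Its agonist arrays read 195, 230, 268 and 145, then 262, 239, 224 and 223, then 221, 236, 298 and 226 at 24 h. At 5 days they read 323 and 152, then 191, 321, 252 and 188, then 272, 292, 283 and 217. The agonist arrays of the 2 times overlapped widely: the 5 day means were 1.13, 1.00 and 1.08 times those at 24 h, while the vehicle mean was 0.623 times its 24 h value. Its 5 day ratios of 2.00, 2.00 and 2.24 are thus set against low 5 day vehicle arrays. Its 24 h ratios were already above 1, at 1.098, 1.242 and 1.286. All CP-868388 and CP-865520 arrays of 24 h were above the highest vehicle array, 217, while CP-775146 arrays lay on both sides of it.

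160847_AT was the other member in which all 5 day vehicle arrays (145, 136, 133 and 180) were below all 24 h vehicle arrays (221, 252, 239 and 280), as in 11.5% of all tested. At 24 h the agonist arrays read 266, 135, 241 and 261, then 279, 169, 170 and 308, then 167, 175, 224 and 157. At 5 days they read 316 and 238, then 375, 268, 327 and 263, then 355, 281, 268 and 329. The 5 day agonist arrays overlapped the 24 h vehicle arrays, and the ratios of 1.87, 2.08 and 2.08 became 1.397, 1.55 and 1.55 against the mean of all 8 vehicle arrays.

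100894_AT was the dimmest member, close to the floor. Vehicle arrays read 121, 106, 98 and 131 at 24 h and 100, 58, 68 and 68 at 5 days, and the 24 h agonist arrays lay between 107 and 148. The 5 day agonist arrays read 155 and 127, then 198, 118, 155 and 138, then 163, 128, 153 and 152, in part within the range of the 24 h arrays. Its ratios of 1.92, 2.07 and 2.03 became 1.504, 1.62 and 1.59 against all vehicle arrays.

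94789_R_AT scattered widely within groups. Its vehicle arrays read 501, 495, 442 and 596 at 24 h and 494, 282, 162 and 392 at 5 days. At 24 h the agonist arrays read 445, 471, 578 and 659, then 135, 527, 334 and 611, then 605, 607, 697 and 403. At 5 days they read 886 and 510, then 610, 707, 570 and 840, then 662, 625, 602 and 693, above the vehicle arrays of that time but overlapping both vehicle and agonist arrays of 24 h. The values 135 and 334 come from the 2 CP-868388 arrays with a low Gapdh ratio. Without those arrays the 24 h ratio under CP-868388 was 1.12 in place of 0.790. The ratios at 5 days were 2.10, 2.05 and 1.94.

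**Figure D2:**
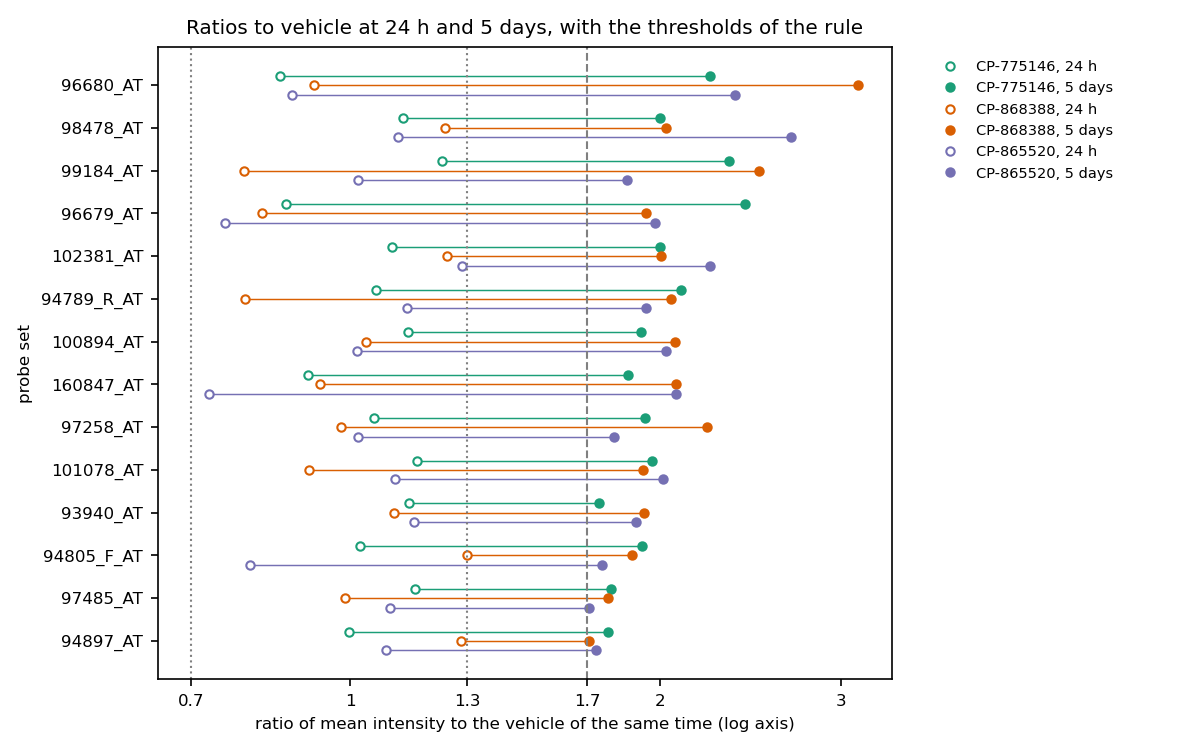
Ratio of the mean intensity to the vehicle mean of the same time (log axis) for each of the 14 probe sets and 3 compounds, at 24 h (open) and 5 days (filled), with dotted lines at 0.7 and 1.3 and a dashed line at 1.7. By the rule all open points lie between the dotted lines and all filled points to the right of the dashed one; 96680_AT under CP-868388 reached 3.12.

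The vehicle groups themselves differed between the 2 times, and each time had its own mice, so time and anything else that differed between those mice or arrays cannot be told apart. The median of the vehicle mean at 5 days over that at 24 h was 0.750 in the 14, with 13 below 1 (92.9%). Among all 5123 probe sets above 50 on the vehicle arrays it was 0.958, with 2884 below 1 (56.3%). Among the 379 at least 1.7 times vehicle at 5 days it was 0.914, with 264 below 1 (69.7%), and among the 101 that reached 1.7 at both times it was 0.938, with 67 below 1 (66.3%). A rule that asks for a high ratio at 5 days and a ratio near 1 at 24 h favours probe sets with a lower vehicle at 5 days, so these shares are a description. 98478_AT was the exception, with a vehicle ratio of 1.03. Against the mean of all 8 vehicle arrays, 5 of the 14 were under 1.7 in all 3 compounds at 5 days, and 5 were above 1.3 at 24 h in at least 1 compound.

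**Figure D3:**
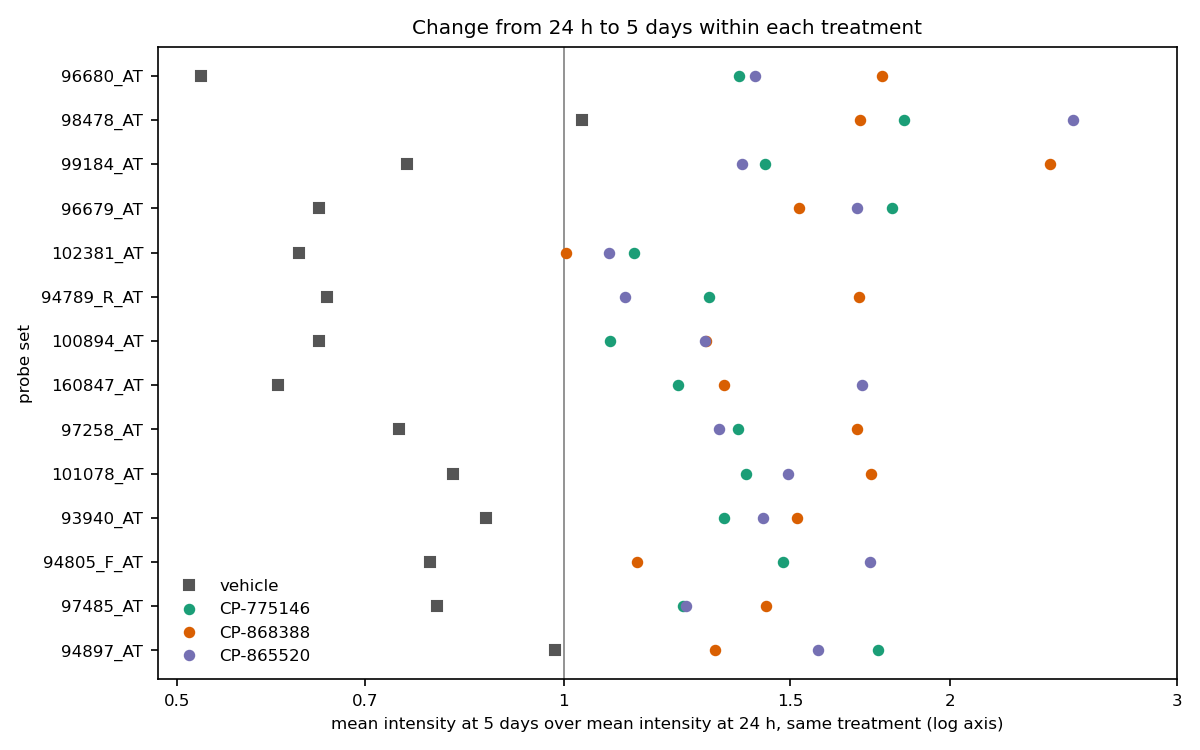
Mean intensity at 5 days over mean intensity at 24 h within the same treatment (log axis) for the 14 probe sets, with vehicle as squares and compounds as circles. The vehicle squares lie left of 1 in all but 98478_AT (1.03), and the agonist circles lie at or right of 1, from 1.00 for 102381_AT to 2.49 for 98478_AT.

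How firmly a probe set counts as late-induced also depended on single arrays. CP-775146 at 5 days had 2 arrays, and replicate 1 was above replicate 2 in 13 of the 14 (92.9%), where it was above in 3193 of the 5123 (62.3%). The exception was 94897_AT. Without replicate 1 the rule kept 7 of the 14, and 102381_AT, 160847_AT, 93940_AT, 94789_R_AT, 97258_AT, 97485_AT and 98478_AT dropped out. With the rule applied to CP-868388 and CP-865520 alone, 19 probe sets met it, all 14 among them. Only 100894_AT, 101078_AT and 96680_AT met the rule whichever of the 30 arrays was left out. 94897_AT met it least often, in 21 of 30, followed by 94805_F_AT in 23. At 5 days the median coefficient of variation over the 14 was 14.4% in vehicle, 19.9% with CP-775146, 14.6% with CP-868388 and 10.8% under CP-865520.

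The 3 compounds were compared with one another at the same dose and time, 3 pairs at each time, which the rule did not use directly although its thresholds limit how far apart the compounds can lie. Differences were fitted with limma on log2(intensity + 50), which understates differences of dim probe sets. At 5 days none of the 14 was called in any pair at an adjusted p under 0.05 (limma, Benjamini-Hochberg over 7963 probe sets). All probe sets were called in 0.0753% for CP-775146 against CP-868388, 0.0251% for CP-775146 against CP-865520 and 0.0628% for CP-868388 against CP-865520. At an unadjusted p under 0.05, limma had 0, 1 and 2 members in these pairs, against 7.76%, 5.29% and 7.72% of all probe sets tested. The lowest adjusted p of a member in limma was 0.813, 0.787 and 0.387. Differences ran from −0.41 to 0.27, −0.39 to 0.34 and −0.37 to 0.46 on the log2 scale, and their 95% intervals lay within a 2-fold change either way in 13, 14 and 14 of the 14, as in 97.0%, 97.9% and 98.8% of all tested. The interval that reached past it was that of 96680_AT for CP-775146 minus CP-868388, −0.41 with bounds of −1.04 and 0.21.

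98478_AT and 99184_AT had the 5 day differences with the lowest unadjusted p. 98478_AT was lower under CP-868388 than under CP-865520 by −0.37 ± 0.12 (SE), with bounds of −0.61 and −0.12, unadjusted p = 0.00488 and adjusted p = 0.387 in limma. It was lower under CP-775146 than under CP-865520 by −0.39 ± 0.15 (bounds −0.69 and −0.09), with adjusted p = 0.787 in limma. All 4 CP-865520 arrays, 469 or more, were above the 6 arrays of the other compounds, the highest at 442. 99184_AT differed the other way, by 0.46 ± 0.19 for CP-868388 minus CP-865520 (bounds 0.07 and 0.85), with adjusted p = 0.545 in limma, and its CP-865520 array at 4451 lay among the CP-868388 arrays. These 3 differences did not pass the adjusted threshold. A missed threshold does not show that the compounds act alike on them.

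At 24 h, where the rule holds all compounds near vehicle, 3 members were called for CP-775146 against CP-868388 (16.4% of all tested), 0 for CP-775146 against CP-865520 (0.1%) and 1 for CP-868388 against CP-865520 (27.9%). At an unadjusted p under 0.05 the counts in limma were 4, 1 and 3 of 14, against 29.2%, 12.8% and 39.1% of all tested. 99184_AT was higher with CP-775146 than with CP-868388 by 0.60 ± 0.19 (SE; bounds 0.21 and 0.99; adjusted p = 0.0309, limma), with no overlap between the 4 arrays of each. 101078_AT was higher by 0.35 ± 0.12 (bounds 0.12 and 0.59; adjusted p = 0.0373, limma), with overlapping arrays. 94897_AT was lower under CP-775146 by −0.34 ± 0.11 (bounds −0.58 and −0.10; adjusted p = 0.0438, limma), also with overlap. 94805_F_AT was higher with CP-868388 than with CP-865520 by 0.63 ± 0.13 (bounds 0.37 and 0.90; adjusted p = 0.00136, limma), and its lowest CP-868388 array, 566, was above its highest CP-865520 array, 402.

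All 4 calls involve CP-868388 at 24 h, which holds 2 of the 3 arrays with a low Gapdh ratio, and that of 94805_F_AT also involves CP-865520 at 24 h, which holds the other. The mean log2 Gapdh ratio at 24 h was −0.36 under CP-868388, against 0.02 for vehicle, 0.03 for CP-775146 and −0.05 for CP-865520. With a 5′ to 3′ index of 3 control transcripts (Gapdh, beta-actin and pyruvate carboxylase) as a covariate, the differences became 0.39 for 99184_AT (adjusted p = 0.624), 0.09 for 101078_AT (0.921) and −0.10 for 94897_AT (0.912) in limma, and these were no longer called. Without the 3 arrays, which left 2 for CP-868388 and 3 for CP-865520 at 24 h, they were 0.61 (0.270), 0.14 (0.651) and −0.17 (0.659). For 99184_AT the size of the difference was thus kept without the 3 arrays and was smaller with the covariate, and its call was lost in both. The mean index at 24 h was −1.35 for CP-868388 and 0.36 for CP-775146. With groups that differ in the index, compound and RNA integrity cannot be fully told apart by the covariate. 94805_F_AT kept its call, at 0.58 (adjusted p = 0.0273, limma) with the covariate and 0.58 (0.0410) without the arrays. Over 40 alternative settings 94805_F_AT was called in all, while 99184_AT and 101078_AT each lost their call in 9 and 94897_AT in 10. Their adjusted p in limma ranged over these settings from 0.0149 to 0.624 for 99184_AT, 0.0112 to 0.921 for 101078_AT, 0.0117 to 0.912 for 94897_AT and 0.000392 to 0.0410 for 94805_F_AT. Single arrays sufficed to end a call: 101078_AT lost its call without CP-775146 replicate 2 or 4 or CP-868388 replicate 1 or 3, 94897_AT without CP-775146 replicate 2, 3 or 4 or CP-868388 replicate 1 or 3, and 99184_AT without CP-775146 replicate 2 or 3 or CP-868388 replicate 1, 2 or 3.

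**Figure D4:**
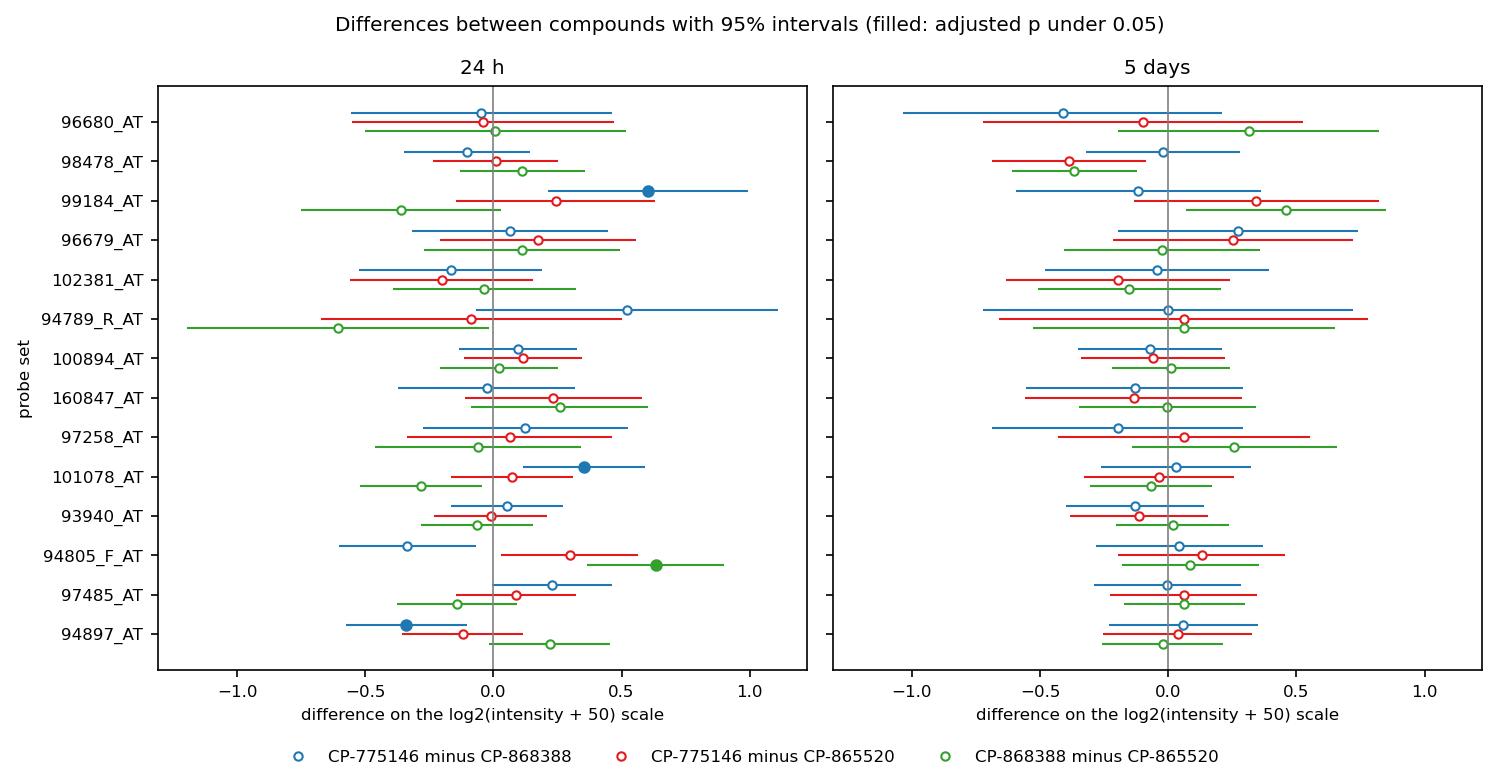
Differences between compounds at 24 h and 5 days on the log2(intensity + 50) scale from limma, with 95% intervals, for the 14 probe sets; filled points have an adjusted p under 0.05. At 5 days no point is filled, and at 24 h the filled points are 99184_AT (0.60), 101078_AT (0.35), 94897_AT (−0.34) and 94805_F_AT (0.63).

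The deviations of single arrays from their group means, which the rule did not use, were related to the control transcripts in 4 of the 14 probe sets over the 30 arrays. These 4 had a Pearson's r with the index of at least 0.57 in size (28.6% of the 14), as had 634 of the 4100 probe sets above 50 on all arrays (15.5%). This was tested for all 14 by 100000 permutations of arrays within groups, adjusted by Benjamini-Hochberg over the 14. 101078_AT was higher on arrays with a higher 5′ to 3′ index, with Pearson's r = 0.66 (permutation p = 0.00213, adjusted 0.0149) and Spearman's rho = 0.58 (p = 0.00605, adjusted 0.0309). 97485_AT had r = 0.68 (permutation p = 0.00945, adjusted 0.0331) and rho = 0.59 (p = 0.0122, adjusted 0.0427). 94789_R_AT had r = 0.57 (permutation p = 0.0080, adjusted 0.0331) and rho = 0.59 (p = 0.00662, adjusted 0.0309). 94897_AT went the other way, with r = −0.61 (permutation p = 0.00048, adjusted 0.00672) and rho = −0.61 (p = 0.00307, adjusted 0.0309). Without the 2 arrays farthest from the median index, r was 0.47, 0.52, 0.59 and −0.59 in the same order. At 5 days the mean log2 Gapdh ratio was 0.03 in vehicle and 0.06, 0.15 and −0.10 with CP-775146, CP-868388 and CP-865520, and that of beta-actin −0.80, −1.08, −0.97 and −1.29. The part of these ratios in the 5 day values was not tested.

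**Figure D5:**
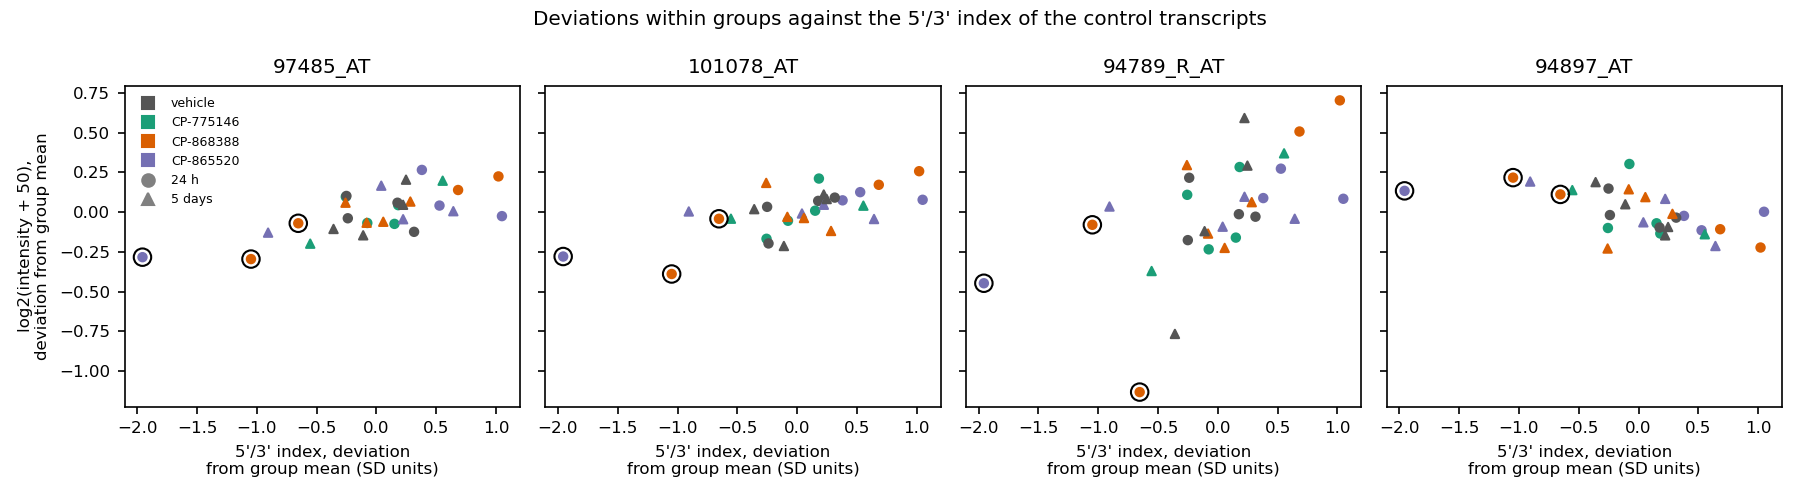
Deviation of log2(intensity + 50) from the group mean against the deviation of the 5′ to 3′ index of the control transcripts (in SD units) for 4 probe sets over 30 arrays; rings mark the 3 arrays with a low Gapdh ratio. 101078_AT, 97485_AT and 94789_R_AT rise with the index (r = 0.66, 0.68 and 0.57) and 94897_AT falls (r = −0.61).

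Deviations of single arrays were also compared between the members. Over their 91 pairs the median size of Pearson's r between deviations was 0.218, against 0.215 among the 4100 probe sets above 50 on all arrays, while the median r was 0.13 against 0.05. Of the 91 pairs 69 were positive (75.8%), against 56.1% of all pairs among the 4100. After adjustment over the 91 pairs, 4 passed at 0.05 for both coefficients. In size, 5 of the 91 had an r at least as large as the smallest of these (5.49%), against 5.28% of all pairs. 96680_AT and 97258_AT deviated together (r = 0.61, adjusted permutation p = 0.0206, and rho = 0.69, adjusted p = 0.00773), as did 96679_AT and 96680_AT (r = 0.60, adjusted permutation p = 0.0221, and rho = 0.53, adjusted p = 0.0450). For each pair r was also taken without the 2 arrays farthest from the median deviation of its first-named probe set, and was then 0.53 and 0.42. Holding the 5′ to 3′ index fixed left the r of these pairs at 0.66 and 0.60. 94897_AT deviated against 94789_R_AT (r = −0.66, adjusted permutation p = 0.0206, and rho = −0.75, adjusted p = 0.00773) and against 97485_AT (r = −0.65, adjusted permutation p = 0.0206, and rho = −0.64, adjusted p = 0.0450), and with the index held fixed these r were −0.49 and −0.41. The 3 probe sets of the opposed pairs are among the 4 that followed the index.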

How the data were processed

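Affymetrix arrays of total liver RNA were used. The deposited intensities are linear; MAS5 is named in the submitters' processing notes, and no source used here gives its version or scaling target. Group means of the 30 arrays as deposited gave the ratios of the rule, and 5 probe sets that the rule leaves out did not meet it in any case. The members and lists were chosen with earlier results of these data known. Every member is described. Differences between compounds were fitted with limma 3.58.1 in R 4.3.3 on log2(intensity + 50) with 8 group means and an intensity trend, over the 7963 probe sets that were not controls and were above 50 on at least 2 arrays, with Benjamini-Hochberg adjustment at 0.05, two-sided. Correlations used deviations from group means, permuted within groups (two-sided). Replicate numbers were not taken as pairs, since same-numbered arrays did not correlate more than other arrays on average. The planned gene lists, cell type markers and promoter motifs were not used, since none of the files used here pairs these probe sets with genes, and no sequence is printed. The number of arrays limits the precision.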

Additional observations from a re-analysis of the deposited data

Results flagged for a closer look

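Of 98 groups of 4 arrays, 14 probe sets in 7 groups, 7 had 1 array far from the other 3 by Dixon's criterion, where chance gives about 4.9. All 7 were at 24 h, 4 were on the 3 arrays with a low Gapdh ratio, and 3 were on CP-865520 replicate 4. Under CP-865520, replicate 4 read 1562 for 101078_AT (others 2010 to 2085), 237 for 93940_AT (others 307 to 315) and 158 for 97258_AT (others 306 to 317). CP-868388 replicate 1 read 367 for 93940_AT (others 246 to 255). CP-775146 replicate 1 read 661 for 94805_F_AT (others 408 to 441) and 840 for 94897_AT (others 607 to 637). Vehicle replicate 2 read 203 for 97258_AT (others 285 to 299).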

How the results depend on the processing

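The count of 14 members depended on the thresholds. It was 34 with a 5 day ratio of at least 1.5, 3 with at least 2 (102381_AT, 96680_AT and 98478_AT), 6 with a 24 h band of 0.8 to 1.2 and 30 with 0.6 to 1.4. It was 5 with the mean of all 8 vehicle arrays as reference, of which 2 were among the 14, and 23 without the 3 arrays with a low Gapdh ratio, an alternative chosen after seeing the data, which lost 102381_AT. Leaving out 1 array at a time gave 7 to 17. With group medians it was 17, 11 of them among the 14. Scaling arrays to the median of probe sets above 50 on all arrays gave 16, 10 of them among the 14, and lost 102381_AT, 94805_F_AT, 94897_AT and 98478_AT. After that scaling the median 24 h ratio of the 14 was 1.12, 1.12 and 1.06 for CP-775146, CP-868388 and CP-865520. Quantile normalization gave 19, 8 of them among the 14, and lost the same 4 with 97485_AT and 99184_AT. It moved the median log2 ratio of the 5123 probe sets at 5 days by 0.23, 0.13 and 0.16 for CP-775146, CP-868388 and CP-865520. The 4 members called between compounds at 24 h became 1 without the filter, 2 when the fit held just the groups compared, 1 with the 5′ to 3′ index, 1 without the 3 arrays and 1 to 6 with 1 array left out; at 5 days the count was 0 in every alternative. The cause of these changes was not tested. Same-numbered arrays of 2 groups correlated at −0.03 on average and other arrays at 0.01, so on average the numbers do not show pairing. The highest mean for 2 groups was 0.34, for CP-775146 and vehicle at 5 days. With a replicate block, 4 members were called at 24 h and 0 at 5 days. The lists of genes and promoter motifs were not run. Values near 50 and groups of 2 to 4 arrays limit what could be detected.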

Other observations

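With the mean of all 8 vehicle arrays as the reference, 3 probe sets outside the 14 met the thresholds, chosen here after their values were seen. 160778_AT was 2.65, 2.34 and 2.29 times that reference at 5 days under CP-775146, CP-868388 and CP-865520, and 0.887, 1.25 and 1.02 times it at 24 h. Its vehicle mean was 508 at 24 h and 1026 at 5 days, the opposite order to that in 13 of the 14. 161148_F_AT was 2.82, 1.86 and 2.07 times the reference at 5 days, with vehicle means of 66.5 and 142.5, and 96912_S_AT was 1.82, 1.79 and 1.97 times it, with vehicle means of 64 and 79.2. A mirror rule, for probe sets lowered by the same factor at 5 days and within the band at 24 h, found 16.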
